A study of Mus musculus with 8 samples.

Results

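Cluster 3 is 1 of 12 groups of cells, numbered 0 to 11, that the authors obtained when they clustered cultured fat precursor cells by their RNA. Its members here are the gene entries that the authors' deposited table of cluster markers gives for it, 427 of 13337 entries for 3903 gene symbols. Each entry sets the cells of cluster 3 against all remaining cells and holds a log2 fold change of the mean level and the percent of cells in which the gene was detected on either side. The cells were preadipocytes from the inguinal white fat of young adult C57BL/6 mice, either wild type (WT) or Hmgn1-/- and Hmgn2-/- (double knockout, DKO), which lack the nucleosome-binding proteins HMGN1 and HMGN2. They were cultured on collagen and profiled by 3′ droplet single-cell RNA sequencing at day 0, and at day 6 of a browning protocol with insulin, dexamethasone, IBMX, T3 and rosiglitazone, with 2 cultures for each genotype and day, 8 samples in all. The table pools the cells of all samples. No value below therefore has a replicate or an error, no test of samples could be made, and DKO was not compared with WT, nor day 6 with day 0. The cluster was built from these same cells and genes, so its fold changes describe it and are not tested.

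Stromal cells of fat make and remodel the extracellular matrix. They secrete fibrillar collagens, cut them outside the cell with matrix metalloproteinases, and break down the fragments they take up in lysosomes with cathepsins. The same cells release chemokines, small proteins that attract leukocytes. When a precursor cell becomes an adipocyte it loses stress fibres and gains proteins that take up, bind and store lipid.

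Cluster 3 held 10.4% of all cells, as solved from the detection percents, and was the 4th largest of the 12 clusters. It had the fewest entries of any cluster. Of its 427 entries, 247 were higher in the cluster (57.8%) and 180 were lower. At a log2 fold change of at least 0.5 there were 74 higher genes (17.3% of the entries), and 90 genes were lower by at least as much (21.1%). In all, 8 genes were higher by 1 or more. Counted over all symbols of the table, 6.33% were listed as higher in cluster 3 and 4.61% as lower. The median log2 fold change of the higher genes was 0.40, and their median detection was 80.2% of the cells of cluster 3 and 63.2% of the remaining cells. The entries nearest the minimum of 0.25 included Fn1, the gene of fibronectin, at 0.25, and Rock2, a kinase that acts on the cytoskeleton, at -0.25.

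Spp1, the gene of the secreted phosphoprotein osteopontin, led the cluster, ahead of the chemokine gene Ccl8 and the gelatinase gene Mmp2 after which it had been named for this work. Spp1 had a log2 fold change of 1.72 with detection in 79.1% of its cells and 59.7% of the remaining cells. Ccl8 followed with 1.45, and its detection was 66.3% against 28.3%. Mmp2 had 1.22, with detection in 95.8% against 67.9%. Ccl8 and Mmp2 therefore came 2nd and 3rd. Next were the gene of the collagen-cutting protease cathepsin K, Ctsk, at 1.21, and Cpxm1, a secreted member of the carboxypeptidase family, at 1.18. The stromelysin genes Mmp3 and Mmp11 had 1.11 and 1.07, and Aebp1, whose product binds collagen outside the cell, had 1.03. Mmp11 showed the largest gain in detection of all entries, with 75.6% of the cells against 33.6%. The genes from the 9th to the 20th place ran from 0.98 for Lgals3, the gene of galectin-3, to 0.79 for Hmox1, which codes for the haem-degrading enzyme haem oxygenase 1. Among them were the growth factor midkine (Mdk, 0.92), the calcification inhibitor matrix Gla protein (Mgp, 0.88), the lysosomal glycoprotein Gpnmb (0.88), apolipoprotein E (Apoe, 0.85) and the oxysterol hydroxylase Cyp7b1 (0.81).

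**Figure D1:**
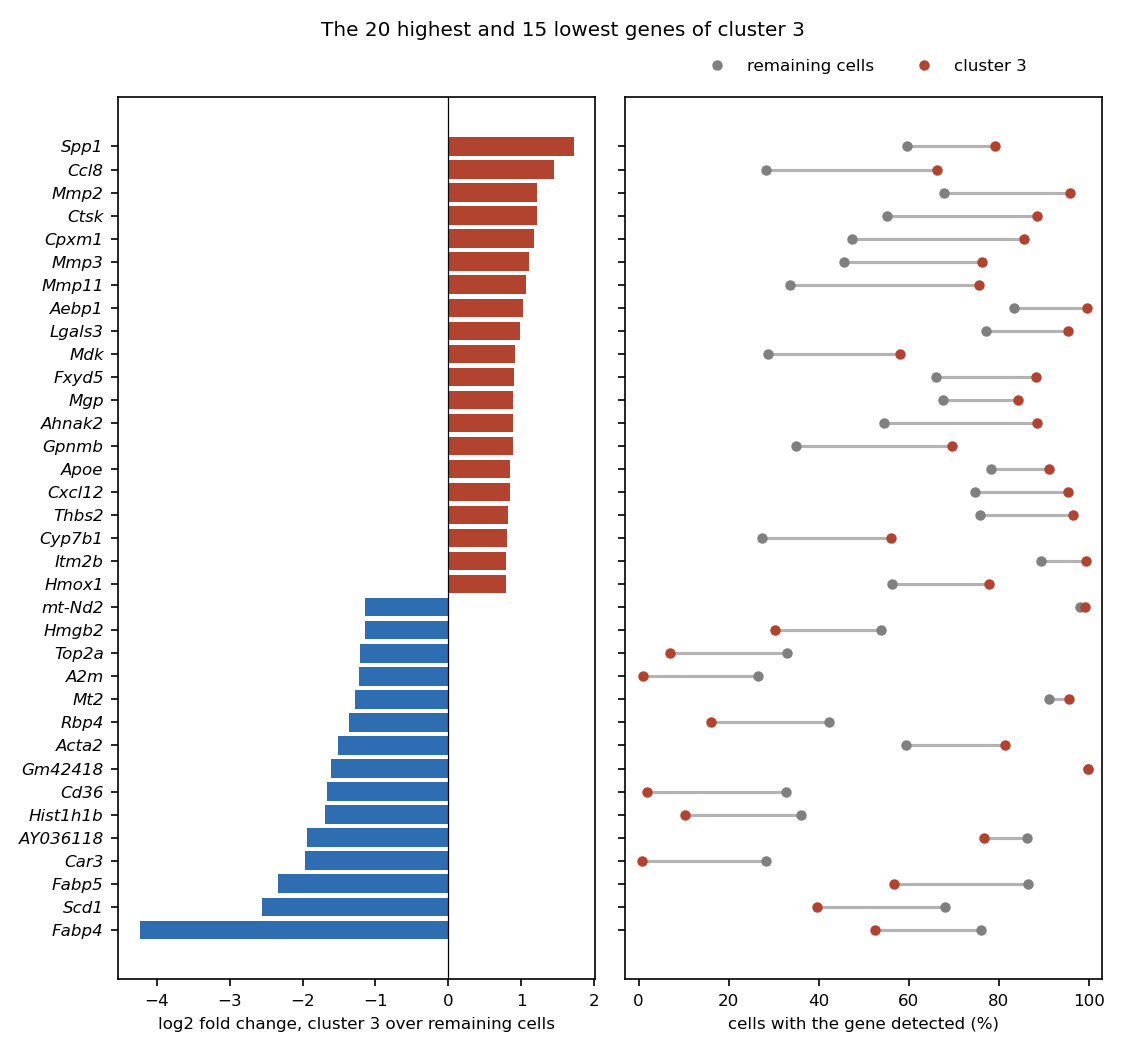
Left, log2 fold change of cluster 3 over the remaining cells for its 20 highest (red) and 15 lowest (blue) genes. Right, percent of cells in which each gene was detected, in cluster 3 (red) and in the remaining cells (grey). Spp1, Ccl8 and Mmp2 stand at the top with 1.72, 1.45 and 1.22, Fabp4 stands lowest with -4.23, and Acta2, Mt2 and mt-Nd2 are lower although detected in more cells of the cluster.

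The leading genes differed in which other clusters shared them. Spp1 (chromosome 5, 104435118 to 104441050, plus strand, mm10, protein-coding) was listed for 6 clusters, with log2 fold changes of 1.72, 0.40 and 0.26 in clusters 3, 0 and 10 and values below 0 in clusters 4, 8 and 11. Its detection was close in clusters 3 and 0, 79.1% and 75.4%, although the mean level relative to all cells, on a log2 scale with a pseudocount of 1, was 1.41 in cluster 3 and 0.34 in cluster 0. Ccl8 (chromosome 11, 82115185 to 82116799, plus strand) had values of 1.45, 1.10, 0.86 and 0.52 in clusters 3, 10, 7 and 1. Cluster 1 came near cluster 3 in the percent of cells with Ccl8 detected, 63.2% against 66.3%, and cluster 7 reached 51.6%. In cluster 10 only 11.3% of the cells had it. Mmp2 (chromosome 8, 92827291 to 92853420, plus strand) was higher in cluster 3 and, at 0.32, in cluster 2, and lower in 5 clusters, with the lowest value, -1.68 on the relative level scale, in cluster 11. Mdk was higher in cluster 3 alone among the clusters with an entry for it, and was detected in 58.0% of its cells and in between 1.0% and 10.3% of the cells of the 5 clusters where it was lower. Clusters 0, 1 and 7 were among those without an entry for Mdk, so its detection there is not given. With no error on any value, neighbours in these orders cannot be ranked beyond the values given.

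**Figure D2:**
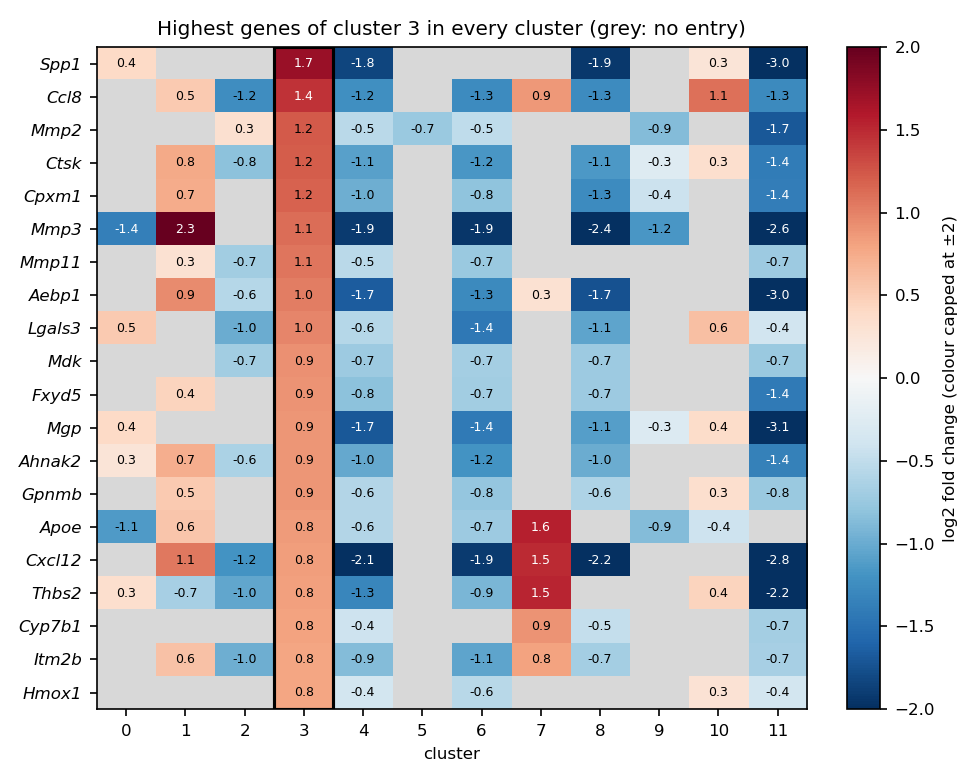
Log2 fold change of the 20 highest genes of cluster 3 (rows) in each of the 12 clusters (columns), each against its own remaining cells. Grey means that the gene has no entry in that cluster, which is not a value of 0, and the box marks cluster 3. Most rows are positive in cluster 1, 7 or 10 where they have an entry, and negative in clusters 4, 6, 8 and 11.

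Over all 247 higher genes, 111 (44.9%) had their largest log2 fold change of any cluster in cluster 3. Another 49 were highest in cluster 1 and 48 in cluster 7. Counted by the difference of detection in place of the fold change, 71 were highest in cluster 3. By fold change, clusters 7, 1 and 0 had 69.0%, 54.0% and 47.3% of their own higher genes highest in themselves. Cluster 3 ranked 6th of the 12 clusters in this share. A higher gene with no entry elsewhere was rare, and the 8 such genes are named here after their values were seen. They were Anpep, Cdkn1c, Mlana, Mamdc2, Gdpd1, Ednrb, Nceh1 and 1700003F12Rik. Anpep (chromosome 7, 79821803 to 79861059, minus strand) codes for the cell surface peptidase aminopeptidase N, and had a log2 fold change of 0.45 with 35.1% of cluster 3 cells and 9.9% of the remaining cells positive. Mamdc2 had the lowest background of these, with 3.5% of the remaining cells against 20.3%. Cdkn1c, the gene of the cell cycle inhibitor p57, was detected in 23.3% against 7.5%. Ednrb, an endothelin receptor gene, was detected in 17.3% against 4.6%. All were thus found in a minority of the cells of cluster 3.

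Of 18 matrix protease genes in the table, 9 had an entry in cluster 3 and all 9 were higher, with a median of 0.60 beside a median of 0.29 over all entries. The other 9 had none. In cluster 1 the list had 8 entries, all higher, with a median of 0.63, and 5 genes had their largest value there. The protease genes of cluster 3 besides Mmp2, Mmp3, Mmp11 and Ctsk included Mmp14 (0.60), the membrane-bound activator of pro-Mmp2. The others were the secreted serine protease gene Htra1 (0.48), the aggrecanase gene Adamts5 (0.42), the procollagen N-proteinase gene Adamts2 (0.40) and Mmp23 (0.29). Mmp2, Mmp11, Mmp14 and Ctsk had their largest value in cluster 3. Mmp3 was further from 0 in cluster 1, at 2.26, and Adamts5 reached 1.44 there. A list of protease inhibitors and related serpins was set beside them. Of 6 entries 5 were higher. The highest was Serpinf1 (0.75), a serpin gene whose product does not itself inhibit proteases. Serpine2 (0.71), which codes for protease nexin 1, the metalloproteinase inhibitor gene Timp2 (0.62) and the cathepsin inhibitor gene Cst3 (0.52) followed. The broad protease inhibitor A2m was the only lower entry, at -1.23 and with detection in 1.0% of cells against 26.5%.

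Genes that build the matrix were divided by type. Col1a1 and Col1a2, which code for the chains of type I collagen, had 0.59 and 0.78, and Col5a2 had 0.47, but each was higher in cluster 1, where Col1a2 reached 1.15. Col11a1 was lower (-0.32). None of the 18 genes for other collagens and basement membrane was higher, and 7 were lower, with a median of -0.46. They included Col4a1 (-0.92), a chain of the basement membrane collagen IV, the collagen IV-binding nidogen gene Nid2 (-0.74) and Col12a1 (-0.69). Col4a1 was detected in as many cells of cluster 3 as elsewhere, 92.7% against 92.4%, whereas Nid2 was detected in 9.9% against 35.6%. All 5 listed genes of elastic fibres and microfibrils were higher, led by Mfap5 (0.76) and Mfap2 (0.55). Cluster 1 had 9 entries of this list, all higher with a median of 0.55, and 8 genes had their largest value there. The 3 listed small leucine-rich proteoglycans, which bind collagen fibrils, were higher too, with 0.54 for Dcn, 0.48 for Bgn and 0.30 for Podn. None was highest in cluster 3, since Dcn reached 1.95 in cluster 7, and Bgn 0.64 and Podn 0.89 in cluster 1. Of 5 listed collagen processing genes, the C-proteinase enhancer Pcolce (0.53), the collagen chaperone Serpinh1 (0.36) and Crtap (0.26) were higher, and the cross-linking oxidases Lox (-0.33) and Loxl2 (-0.43) were lower. The list of matricellular and adhesive proteins had 5 higher and 3 lower members. Spp1, Thbs2 (0.82), Postn (0.78), Sparc (0.40) and Fn1 (0.25) were higher, while Vcan (-1.04), Ccn2 (-0.71) and Thbs1 (-0.49) were lower. The paired thrombospondin genes thus had opposite signs in cluster 3, and Thbs1 was nevertheless detected in more of its cells, 90.2% against 71.9%.

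**Figure D3:**
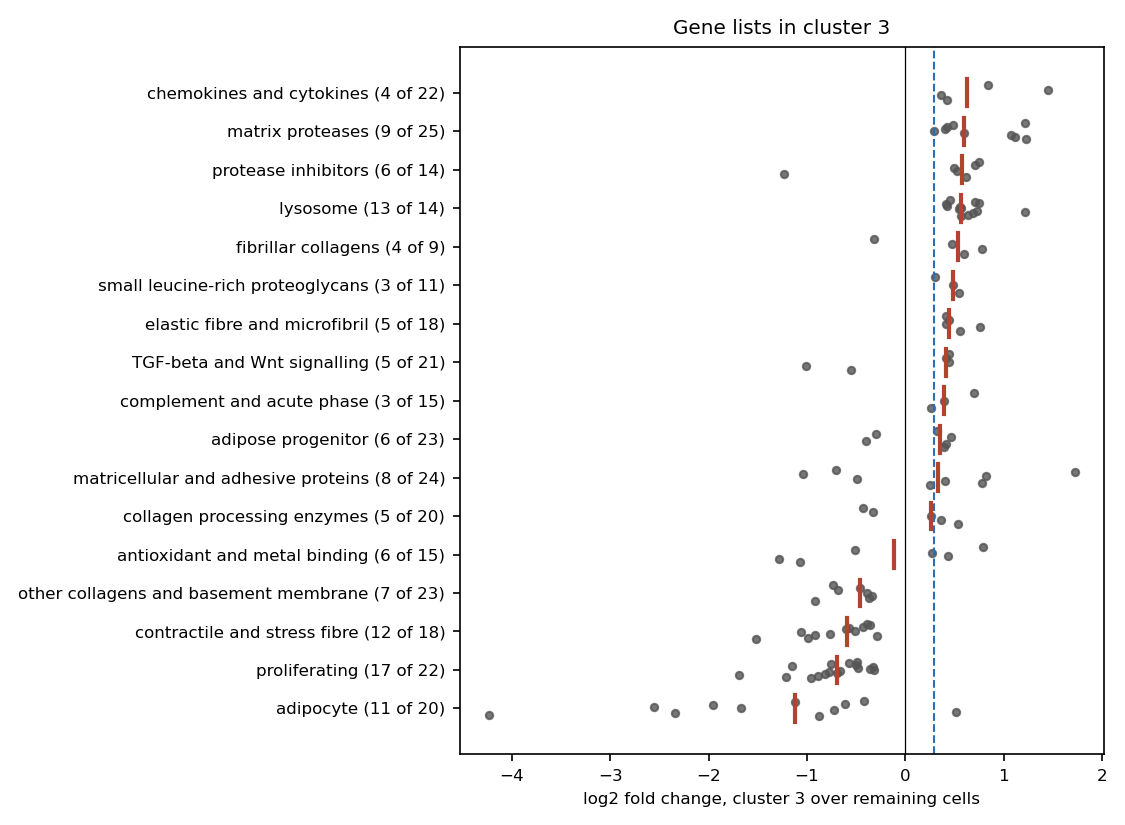
Log2 fold change in cluster 3 of each gene (points) of the gene lists with at least 3 entries there. Red bars are list medians, the dashed blue line is the median of all 427 entries, 0.29, and the numbers in brackets give the entries in cluster 3 out of the genes of the list. The listed lysosome, matrix protease and chemokine genes lie above 0 without exception, and the listed contractile and proliferation genes lie below it without exception.

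Of 14 chemokine and cytokine genes in the table, 4 had an entry in cluster 3, all higher with a median of 0.63, and 10 had none. Cluster 7 also had 4 higher members and none lower, with a median of 0.87, and cluster 1 had 9 higher and 1 lower. Beside Ccl8 the genes of cluster 3 were Cxcl12 (0.84), which retains and recruits cells that carry its receptor Cxcr4, Ccl2 (0.42) and Ccl7 (0.36). Ccl2 (82035571 to 82037453), Ccl7 (82045712 to 82047525) and Ccl8 all lie on the plus strand of chromosome 11. Ccl8 was highest in cluster 3, Ccl2 in cluster 10 (0.57) and Ccl7 in cluster 1 (1.00). Only 13.9% of the cells of cluster 10 had Ccl2, beside 54.1% in cluster 1 and 63.2% in cluster 5. Detection of Ccl2 was 47.1% in cluster 3 and 39.5% in the remaining cells, a gap far smaller than that of Ccl8. The complement genes C4b (0.70), C1s1 (0.39) and C1ra (0.26) were higher as well, and C4b was highest in cluster 7 (1.29).

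Of the 14 lysosome genes reported here, 13 had an entry in cluster 3, all higher, with a median of 0.56, and 11 of them had their largest value in cluster 3. Grn alone had no entry. The cathepsin genes among them were Ctsk (1.21), Ctsl (0.73), Ctsd (0.69), Ctsb (0.64), Ctsa (0.56) and Ctsz (0.54). Outside these 14 genes, the cathepsin C gene Ctsc went the other way. It had -0.43 in cluster 3, with detection in 4.0% of the cells, and was highest in cluster 8, at 1.17. The asparagine-cutting protease legumain, Lgmn, had 0.56. The membrane proteins Cd63, Lamp1 and Lamp2 had 0.75, 0.55 and 0.42, the hexosaminidase gene Hexa 0.71, and the cholesterol carrier Npc2 0.45. Ctsd was higher in cluster 1, at 0.73, and Psap in cluster 8, at 0.63. The median difference in detection was 11.4 percentage points, beside 9.4 over all entries, higher and lower together. Median detection of the lysosome genes was 97.1% against 86.4%, beside 80.2% against 63.2% for all 247 higher genes. The difference was smallest for Cd63 and Ctsl, which 94.3% and 94.0% of the remaining cells also had. It was largest for Ctsk, at 88.5% against 55.3%. The same 14 genes had 10 entries in cluster 1, all higher with a median of 0.49, and 13 entries in cluster 11, all lower with a median of -0.80. Of 7 subunit genes of the V-ATPase, the pump that acidifies the lysosome, 4 had an entry and were higher. Chosen by their Atp6v prefix after the values were seen, they were Atp6v1f (0.60), Atp6v1g1 (0.51), Atp6v0b (0.35) and Atp6v0c (0.35).

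**Figure D4:**
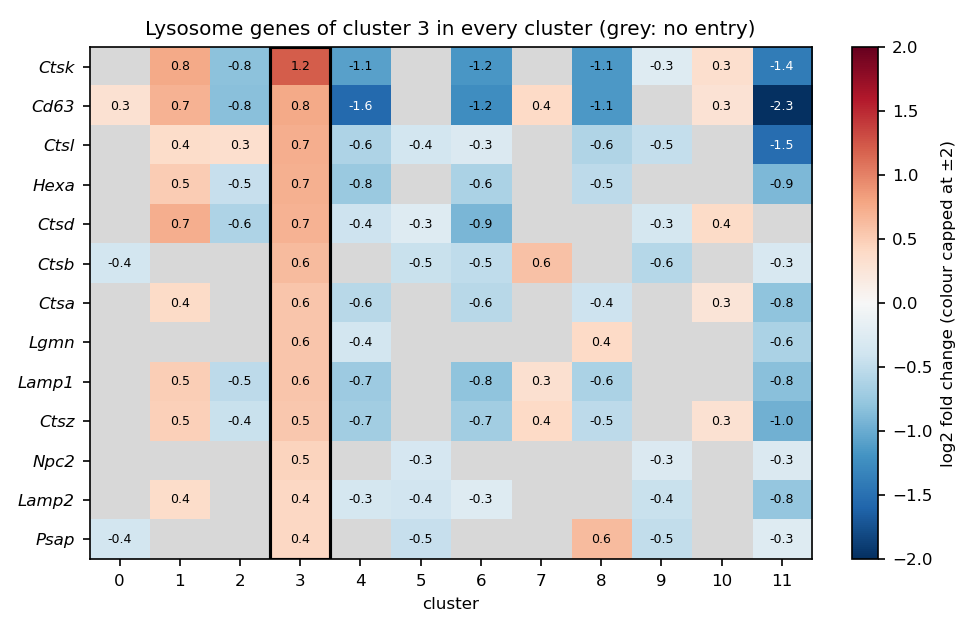
Log2 fold change of the 13 lysosome genes listed for cluster 3 (rows) in each of the 12 clusters (columns), each against its own remaining cells. Grey means no entry, and the box marks cluster 3. All 13 are positive in cluster 3, 9 are positive in cluster 1 and 12 are negative in cluster 11.

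The promoters of the higher lysosome genes were searched for the palindrome CACGTG. This is the E-box read by the lysosomal gene regulator TFEB and by other basic helix-loop-helix factors. The 250 bases before each gene start were taken from RefSeq promoters of build GRCm38.p6, the same assembly as mm10. Of 12 higher lysosome genes with a promoter sequence, 5 held the motif (41.7%). It was found in 14.5% of the promoters of all genes higher in cluster 3 (27 of 186) and in 7.09% of those of its lower genes (9 of 127). The 27 include the 5 lysosome genes. The share was 10.2% for all symbols of the table and 6.86% for all 27025 promoters. Since 13 of the 14 lysosome genes were higher, their share could not be set beside that of lysosome genes that were not. It therefore describes lysosome genes and not cluster 3. The longer palindrome TCACGTGA, which contains the first, was in 2 of the 12 lysosome promoters (16.7%) and in 0.907% of all. A match describes the letters only, and neither the binding of a factor nor its part in the levels was measured. RefSeq and GENCODE place several of these gene starts differently. The matches of Ctsa and Ctsl and the nearer one of Ctsd overlap an exon in GENCODE, so their letters are not shown. The stretches outside exons follow, to show the motif in its surroundings, with CACGTG in capitals, 5′ to 3′ on the strand of the gene. They are Ctsd, chr7:142388055-142388077, minus strand, before the GENCODE start at 142388038; Lamp1, chr8:13159088-13159160, plus strand, before the start at 13159161; and Lgmn, chr12:102439124-102439153, minus strand, in an intron by GENCODE, whose start is at 102439813.
Ctsd: tccccCACGTGacctgtatccag
Lamp1: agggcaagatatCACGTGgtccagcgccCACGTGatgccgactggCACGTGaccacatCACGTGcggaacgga
Lgmn: tggaatgtctgtCACGTGgtccattttata
Lamp1 carried 4 copies, the first 61 bases and the last 15 bases before the start, which RefSeq and GENCODE share. The log2 fold changes of the 5 genes with a match, 0.55 to 0.73, lay inside the range of the whole list, 0.41 to 1.21, and Ctsk, its highest member, was not among them.

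The lower side of cluster 3 was led by genes of adipocytes. Fabp4, a fatty acid carrier of adipocytes, had the lowest value, -4.23, but 52.6% of cluster 3 cells still had it, against 76.1% of the remaining cells. Fabp4 was detected in at least 19.7% of the cells of every cluster, and the part of free RNA in the droplets was not tested. The desaturase gene Scd1 had -2.56 and the related carrier gene Fabp5 -2.34. Carbonic anhydrase 3 (Car3, -1.96), the fatty acid transporter Cd36 (-1.67) and the adipokine gene Adipoq (-0.88) were close to undetected in cluster 3, with 0.8%, 1.8% and 1.9% of the cells against 28.4%, 32.7% and 20.7%. Of 11 adipocyte entries, 10 were lower, with a median of -1.12, beside medians of -1.13 and -1.16 in clusters 0 and 1. The exception was Lpl, the gene of lipoprotein lipase, which had 0.51 and was detected in 98.5% of the cells. Lpl was lower in clusters 0, 1, 5, 9 and 10, with values between -1.49 and -0.87, and higher in clusters 7, 4, 8 and 11, with values between 0.59 and 1.83. Of the 8 clusters with a negative value for Fabp4, clusters 3 and 7 thus had a positive one for Lpl. No thermogenic gene had an entry.

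The 17 listed proliferation genes were all lower, with a median of -0.70. This was not particular to cluster 3. The entries of the list were all lower in clusters 0, 1 and 7 too, with medians of -0.71, -0.69 and -0.76. Its median was above 0 only in clusters 5, 6 and 9, at 1.03, 1.00 and 1.36. Mki67, which marks cycling cells, had -0.96 with detection in 2.3% of cluster 3 cells against 25.3%. Top2a, needed to separate chromosomes, had -1.21, with 7.0% against 32.9%, and the linker histone gene Hist1h1b had -1.69, with 10.3% against 36.2%.

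Contractile genes behaved differently from both, since most were lower in level but not in detection. All 12 listed genes of stress fibres were lower, with a median of -0.59, and 8 of the 12 were detected in a larger percent of cluster 3 cells than of the remaining cells. Acta2, the gene of smooth muscle actin, had -1.52 although its detection was 81.4% in cluster 3 and 59.5% elsewhere. Tagln had -0.99 with 84.4% against 59.9%, and the tropomyosin gene Tpm1 had -0.77 with 88.4% against 70.4%. The mean over the remaining cells joined clusters far apart. Acta2 was higher in clusters 0, 5, 9 and 1, with 1.45, 1.41, 1.05 and 0.53, and lower in clusters 6, 4, 2, 11 and 8, between -4.46 and -3.60, where it was detected in between 4.2% and 23.2% of the cells. On the level scale relative to all cells, cluster 3 lay between these sets, with -1.41 beside 0.44 in cluster 1 and -3.49 in cluster 6. Over the whole cluster, 39 of the 180 lower genes were detected in more of its cells. All 247 higher genes were. Outside clusters 4 and 10, no cluster had a higher gene detected in fewer of its cells. The share of lower genes detected in more cells was 21.7% in cluster 3. It ran from 0% in clusters 4 and 10 to 66.8% in cluster 9.

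**Figure D5:**
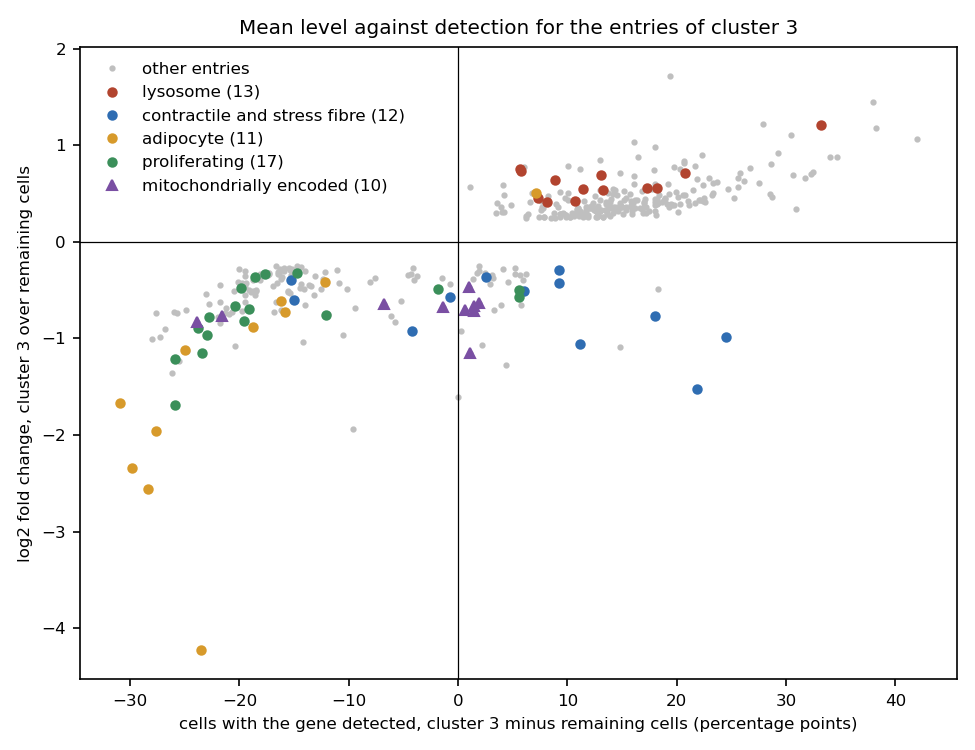
Log2 fold change of the 427 entries of cluster 3 (vertical) against the difference in the percent of cells with the gene detected, cluster 3 minus the remaining cells, in percentage points (horizontal). Lysosome genes lie at the upper right and adipocyte and proliferation genes mostly at the lower left, while 8 of 12 contractile genes and 6 of 10 mitochondrially encoded genes are lower in level but detected in more cells.

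Mitochondrially encoded transcripts, chosen by the prefix mt- after the values were seen, were lower as well. Of the 13 tabulated, 10 had an entry in cluster 3, all lower, from -0.47 for mt-Co2 to -1.15 for mt-Nd2, and 6 were detected in slightly more cells. They were lower in clusters 0, 1, 5, 9 and 10 too, with medians between -0.68 and -0.46, and higher in clusters 2, 4, 6, 8 and 11, with medians between 0.49 and 1.04. The authors had filtered cells by their mitochondrial share. Gm42418 and AY036118, transcripts that overlap ribosomal RNA genes, had -1.61 and -1.94 in cluster 3 and 3.30 and 3.86 in cluster 4. The part of RNA content or quality in the entries of cluster 3 was not tested. Of 47 tabulated large ribosomal subunit genes, 3 were higher, Rpl30 (0.36), Rpl21 (0.31) and Rpl34 (0.30), and none of the 33 small subunit or 32 proteasome genes had an entry.

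Smaller groups were mixed. The zinc-binding metallothioneins Mt1 and Mt2 had -1.07 and -1.28, though detected in 99.7% and 95.6% of the cells, whereas Hmox1 (0.79), Gpx3 (0.43) and Gpx4 (0.27), which counter oxidative damage, were higher. Txnip, of the same list of antioxidant and metal binding genes, was lower like the metallothioneins (-0.51). Hmox1 was higher elsewhere in cluster 10 alone, at 0.29, and Gpx3 was highest in cluster 7, at 1.45. Of the TGF-beta and Wnt list, the BMP antagonist gene Grem1 (0.44), Gas1 (0.44) and Pmepa1 (0.41) were higher, and the activin antagonist gene Fst (-1.01) and Inhba (-0.55), which codes for an activin subunit, were lower. Igfbp6 (0.66), which binds insulin-like growth factor 2, was higher, with 86.6% against 54.9%. Of the AP-1 genes, Fos (0.35) and Jund (0.27) were listed, and of the 13 glycolysis genes tabulated only Ldha was (-0.28).

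Markers that place cells on the path to fat were set beside these values. Of the genes by which the study annotated its clusters, Mmp3 (1.11) and F3 (0.41), the gene of the preadipocyte surface protein CD142, were higher in cluster 3 and Mki67 was lower. Itgb1, Col5a3, Serpina3n, Ppargc1a and Elovl3 had no entry there. Among adipose progenitor genes Cd9 (0.46), Pdgfrb (0.39) and Cd81 (0.32) were higher, and Anxa3 (-0.40) and Fgf10 (-0.30) were lower, none by as much as 0.5. Of 42 genes in the 5 lists for immune, endothelial, glial, pericyte and smooth muscle, and mesothelial cells, 3 had an entry in any cluster and 0 in cluster 3. The authors had removed immune, glial and endothelial cells before they clustered the rest. The knocked-out genes could not check the samples. Hmgn1 (chromosome 16, 96120618 to 96127729, minus strand) and Hmgn2 (chromosome 4, 133964738 to 133968650, minus strand) had entries in 5 clusters and 1 cluster, and neither had one in cluster 3.

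By number, clusters 1, 7 and 0 shared the most higher genes with cluster 3. Each comparison counts the cells of the other clusters among its remaining cells, so these overlaps are descriptions. Cluster 1 shared 133 higher genes (53.8% of those of cluster 3 and 29.6% of its own), cluster 7 shared 83 (33.6% and 22.0%), and cluster 0 shared 74 (15.2% of its own). Cluster 10 shared 54, which was 22.4% of its own higher genes. In contrast, 214 of the 247 were lower in cluster 4 and 199 in cluster 11, and clusters 6 and 8 had 183 and 147 of them lower. Lower entries were common there in general, with 1528 of all 2072 entries in cluster 4 and 1488 of 2487 in cluster 11. In clusters 6 and 8 they were 710 of 1416 and 757 of 1126. The median detection of the entries of cluster 4 was 10.8% of its cells, against 63.0% of its remaining cells. Cluster 3 and cluster 1 had opposite signs in 21 genes, 16 of them lower in cluster 3. Those were mostly cytoskeletal genes, such as Acta2 (-1.52 against 0.53), the actin-binding thymosin gene Tmsb4x (-1.09 against 0.63) and Tpm2 (-1.06 against 0.42). The 5 genes higher in cluster 3 and lower in cluster 1 were Thbs2 (0.82 against -0.67), Serpine2 (0.71 against -0.84), Lpl (0.51 against -0.96), Gas1 (0.44 against -0.28) and Gpx3 (0.43 against -0.42). Detection of Serpine2 was 75.1% in cluster 3 and 28.3% in cluster 1.

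Against cluster 0 the sign differed in 6 genes that were higher in cluster 3. These were Mmp3 (1.11 against -1.37), Apoe (0.85 against -1.14), Ctsb (0.64 against -0.36), Lpl (0.51 against -1.24), Gpx3 (0.43 against -0.42) and Psap (0.41 against -0.37). The 29 genes that were lower in cluster 3 and higher in cluster 0 again held stress fibre genes, with Acta2 at 1.45 and Tagln at 1.48 in cluster 0, and the gene Thbs1, which led cluster 0 at 1.71. Cluster 7 shared high Apoe, Cxcl12, Thbs2 and C4b with cluster 3, all of them higher in cluster 7, where Apoe had 1.55 and Thbs2 1.52. Igfbp6 (0.66 against -0.40) and Chchd10 (0.75 against -0.59), which codes for a protein of mitochondria, were higher in cluster 3 and lower in cluster 7, and the matrix genes Col6a1 (-0.34 against 0.51) and Col12a1 (-0.69 against 0.53) went the other way.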

How the data were processed

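Libraries were made from 8 cultures (4 groups of 2) with a 3′ droplet chemistry. By their methods, the authors used Cell Ranger 6.0.0 and mm10 for mapping, equalized read depth over the captures, filtered cells by genes detected and mitochondrial share, log-normalized the cells in Seurat, took out those of endothelial, immune and glial type, and clustered what remained. The log2 fold changes that the authors deposited compare the log-normalized level of each cluster with all remaining cells, and reach down to 0.25 in size. The p-values that the authors deposited were computed by MAST over single cells, treat cells as replicates, and are none above 0.00996. The authors also deposited detection on either side as fractions of cells, the larger one never under 10.1%. The authors' fractions are printed as percents. Fold changes and fractions are used as the description of the cluster. The p-values are not printed for any gene and chose none. A gene that missed a minimum has no entry, which is not a value of 0. The study gives target numbers of cells and reads per library, but the table does not give the cells or depth behind a value, so no intervals are given. Unused columns of values for a sample: 0. The methods describe no doublet removal, and doublets were not looked for, since the table holds no single cells.

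Python 3.11.15 with numpy 2.4.6, pandas 2.3.3 and matplotlib 3.10.9 was used, and the calculations were tested on simulated data. Shares of clusters were solved by least squares from the 10 genes listed for every cluster, since detection over all cells must be the same from each. It was equal within 0.2 percentage points for all 2692 genes listed at least 2 times. Relative levels were derived from fold changes and shares with a pseudocount of 1. Symbols that a spreadsheet had turned into dates were restored from row names, 1 of them in cluster 3. Coordinates came from GENCODE annotation of mm10, and promoters from RefSeq. The genes named were the 20 highest and 15 lowest, members of the gene lists with an entry, the genes by which the study annotated its clusters and the knocked-out genes. Genes that had opposite signs in 2 clusters or no entry elsewhere, families taken by prefix, and single genes outside this rule were named after their values were seen. The members and lists were chosen with earlier results of these data known, and no list is tested. Some genes of the lysosome list are not reported here and are left out of its counts. Alternatives were other minimums of fold change and detection, other genes for the shares, other scales for the highest cluster, and other list medians.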

Additional observations from a re-analysis of the deposited data

How the results depend on the processing

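The share of cluster 3 stayed at 10.4% when it was solved from genes listed in at least 2 or at least 10 clusters. With a log2 fold change of at least 0.5 there were 74 higher and 90 lower genes, and with at least 1 there were 8 and 23, so the balance of higher to lower turned. The cause was not tested. The number of genes highest in cluster 3 was 71 by the difference of detection, and 114 and 117 with relative levels and without clusters 4 and 10. With members of at least 0.5 in size only, the list medians were 1.15 (chemokines), 1.11 (matrix proteases), 0.62 (protease inhibitors), 0.68 (fibrillar collagens), 0.53 (collagen processing), -0.74 (other collagens), 0.54 (proteoglycans), 0.66 (elastic fibre), 0.78 (matricellular), -0.84 (contractile), -1.40 (adipocyte), -0.82 (proliferating), 0.70 (complement), 0.66 (lysosome), -0.79 (antioxidant) and -0.78 for TGF-beta and Wnt, which turned sign because only its lower members reached that size. The progenitor list had no such member. As a difference of detection in percentage points, the medians were 18.9, 23.2, 17.4, 5.05, 7.4, -4.0, 13.0, 18.0, 12.2, 7.6 (contractile), -23.5, -19.6, 18.2, 11.4, 5.3 (antioxidant) and 14.0 in the same order, and 15.8 for progenitors. The contractile and antioxidant medians turned sign on this scale, since most members of either list were detected in more cells of cluster 3.

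No paired analysis was possible because the cells of all cultures were pooled before the deposited comparison, which left no replicate to pair or leave out. Genotype, day and culture cannot be told apart in any value, and the table does not give the depth behind a low detection percent. The study shows shares of its clusters by genotype and day, but its cluster numbers start from another number than those of the table, with no stated match, so they were not used here.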
